A study of Mus musculus with 36 samples.

Results

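Interferon response genes, the transcripts that cells raise when type I, II or III interferon reaches its receptor, were followed in bladder RNA of adrenalectomized mice given corticosterone or vehicle. The set holds 34 named genes out of 49585 features in the deposited gene tables, was taken by gene symbol, and covers sensors, transcription factors, the ISG15 system, antiviral effectors and antigen processing genes. All 34 were found, and all 34 were among the 17867 features tested after features without signal in more than 50% of libraries were left out. The study carries in its title the question of how glucocorticoids control the bladder clock and the daily pattern of urination. CORT libraries came from C57BL/6 mice without adrenal glands that received corticosterone, the main glucocorticoid of mice, in the inactive phase. Vehicle libraries came from C57BL/6 mice that underwent the same surgery and received the vehicle alone. The time labels were 4, 8, 12, 16, 20 and 24 h, with 3 libraries per treatment and time, which makes 18 libraries per treatment and 36 in all. There were no mice with intact adrenals among these libraries, no age, sex, dose or meaning of time zero is given in the labels used here. Nothing in the labels states that the 3 replicates of a group came from separate animals, so p-values reflect the scatter among these libraries alone, and that scatter may be technical.

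Type I interferons signal through the receptor IFNAR1 and IFNAR2 and the kinases JAK1 and TYK2 to STAT2, which joins IRF9 in the complex ISGF3. ISGF3 binds a promoter motif called the interferon-stimulated response element (ISRE), and interferon gamma acts on another motif, the gamma-activated site (GAS). In tissues without infection a low tonic level of the response keeps sensors and transcription factors in place, and glucocorticoids are known to restrain interferon production and signalling in immune cells.

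Promoters of the genes whose treatment or time differences passed a test are shown first, because the ISRE is the motif through which ISGF3 acts. RefSeq promoter entries (GRCm38.p6) were found for 25 of the 34 genes; there was no entry for Dhx58, Zbp1, Usp18, Oas2, Mx1, Mx2, Parp14, Parp9 or Rtp4. The ISRE core was searched as GAAANNGAAA, or TTTCNNTTTC on the other strand, in the 250 bases before each start. It was present in 11 of 25 genes (44%), against 936 of 27025 genes with an entry (3.46%). GAS, searched as TTCNNNGAA, which reads the same on both strands, was present in 4 of 25 (16%), against 2197 of 27025 (8.13%). A match is a description of letters and shows no binding. Stretches of 100 bases are printed where no annotated exon overlaps them, 5′ to 3′ on the strand of the gene, with ISRE matches in capitals; overlapping matches run together. Ifitm3 and Irf9, which also passed a test, held no match, and their stretches overlap exons and are not printed.
Bst2 (chr8:71537545-71537644, minus strand): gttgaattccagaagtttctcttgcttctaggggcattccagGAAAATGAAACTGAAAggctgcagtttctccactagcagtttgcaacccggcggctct
Rsad2 (chr12:26456518-26456617, minus strand): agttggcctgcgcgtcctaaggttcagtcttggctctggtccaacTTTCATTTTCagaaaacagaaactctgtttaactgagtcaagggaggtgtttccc
Oas1a (chr5:120907526-120907625, minus strand): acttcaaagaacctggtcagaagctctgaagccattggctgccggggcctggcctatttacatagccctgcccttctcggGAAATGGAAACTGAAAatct
Herc6 (chr6:57580892-57580991, plus strand): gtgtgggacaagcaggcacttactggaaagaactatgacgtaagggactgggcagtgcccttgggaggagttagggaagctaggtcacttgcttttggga
Ifih1 (chr2:62646256-62646355, minus strand): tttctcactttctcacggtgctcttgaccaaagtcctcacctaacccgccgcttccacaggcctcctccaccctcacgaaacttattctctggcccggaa
Isg15 (chr4:156200836-156200935, minus strand): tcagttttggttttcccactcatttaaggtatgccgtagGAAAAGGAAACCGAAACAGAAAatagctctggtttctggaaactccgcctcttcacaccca
Ifit1 (chr19:34640749-34640848, plus strand): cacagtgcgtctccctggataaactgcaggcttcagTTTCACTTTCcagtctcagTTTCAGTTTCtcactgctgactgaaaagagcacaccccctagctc

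Bst2, Rsad2 and Oas1a hold the core in these stretches, and Herc6 and Ifih1 hold none in their 250 bases. Isg15 and Ifit1 passed no test and were chosen after the search as further examples: Isg15 has 3 overlapping matches, the most of the 25 genes, and Ifit1 has 2, as Bst2, Oas1a, Gbp3 and Ifit3 do.

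CORT libraries held 11016413 counts on average and vehicle libraries 10682675, with means between 9591304 and 12311337 for the replicate numbers of a treatment. The values are read counts that the authors quantile normalized, put here on a scale common to all 36 libraries, so a normalized value is roughly a read count and low genes rest on few reads. Glucocorticoid target genes were called higher in CORT at 4 h for 6 of 14 (Errfi1, Fkbp5, Pdk4, Per1, Sgk1 and Tsc22d3, the last by 2.31 ± 0.28 on the log2 scale, SE). At that time 0.162% of all features were called, and over the day 0 of the 14. The CORT libraries of 4 h were unequal, with median deviations of these 14 genes from their means of 0.172, 1.261 and 1.557 in replicates 1, 2 and 3. All 12 urothelial and all 8 smooth muscle markers were measured, as the tissue named in the labels would have them, although the protocol text speaks of RNA isolated from blood. In the authors' tables of selected genes, 8 replicate 2 columns carry a name that stands for another library in the full tables; the names of the full tables were used.

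Levels differed widely among the members. Per kilobase of exon, the highest mean normalized values over the 36 libraries were those of Ifitm3, which blocks virus entry at membranes, at 1441, and of the guanylate-binding GTPase Gbp2 at 338.6. They were followed by Bst2 (tetherin, which holds budding virus on the cell) at 100.9 and the ADP-ribosyltransferase gene Parp14 at 94.5. The lowest were Oas3 at 1.36, Mx1 at 2.07 and Mx2 at 2.49. Mx1 and Mx2 are antiviral GTPases, and Oas3 makes the second messenger that activates RNase L. Their mean values of 9.58 (Oas3), 7.83 (Mx1) and 9.01 (Mx2) are a few reads per library, and Oasl1 (13.9), Isg15 (16.2) and Oas1a (18.3) are also low.

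**Figure D1:**
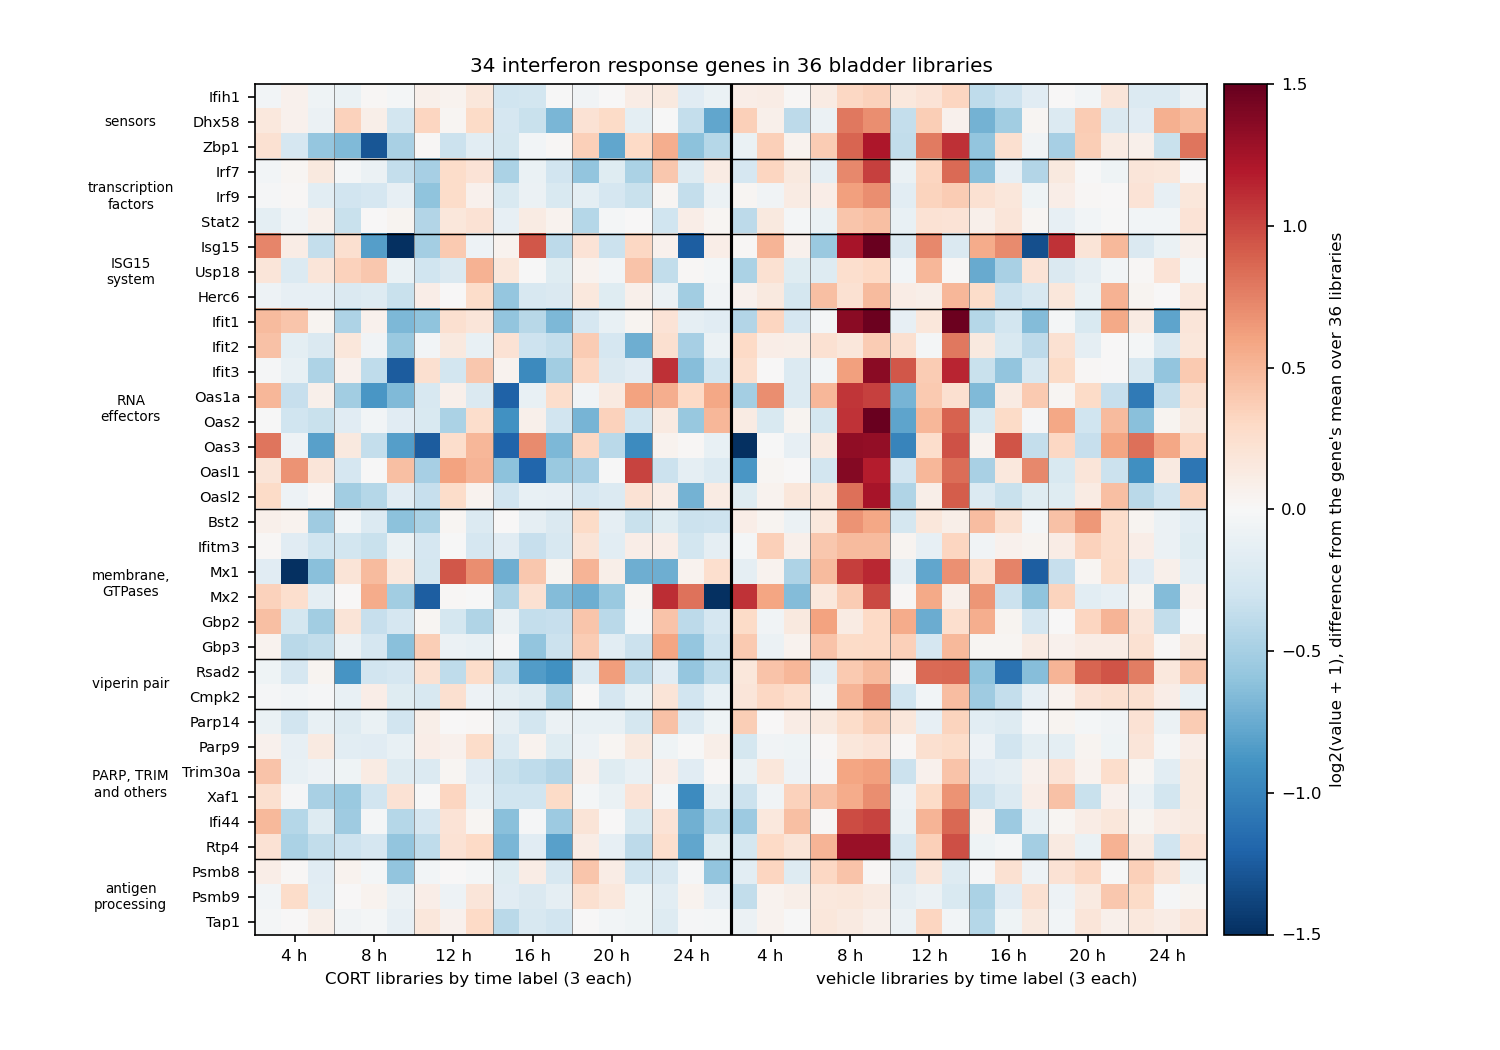
Each row is one of 34 interferon response genes, grouped by role, and each column a library, with CORT on the left and vehicle on the right, by time label. Color is the difference of log2(value + 1) from the mean of the gene over 36 libraries, with the scale cut at 1.5 either way; the red block is vehicle 8 h replicates 2 and 3, followed by vehicle 12 h replicate 3.

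Averaged over the 6 times, the interferon response genes stood lower in CORT. Of 34 members, 7 were called lower and 0 higher (limma, Benjamini-Hochberg adjusted p under 0.05 over all features; 4.11% of all features were called, 2.82% lower and 1.29% higher). The difference was below 0 for 33 of 34, with a median of -0.24 on the log2(value + 1) scale, against 0.02 over all features tested. At an unadjusted p under 0.05 there were 19 members, where 20.2% of all features were. The called genes were Ifitm3, Rsad2, Bst2, Irf9, Rtp4, Herc6 and Parp14. The count was 11 without the replicate 1 libraries and 0 by limma without those of replicate 2 or 3 (9 and 6 members at an unadjusted p under 0.05). It was also 0 when the 8 libraries that carry different names in the authors' tables were left out or took their other name (10 unadjusted in each case), and 5 to 10 without any single library. Over all features, 408 to 1282 were called in the 36 fits that left out a single library, against 734 with all libraries.

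Among the transcription factors, Irf9, the DNA-binding subunit of ISGF3, lay between 157.5 and 289.9 in CORT (median 215.3) and between 215.4 and 389.6 in vehicle (median 259.5). The ranges overlap, with the highest vehicle values at 8 h. It differed by -0.31 ± 0.07 (log2, SE, n = 18 per treatment; limma, adjusted p = 0.0135). Stat2, its partner in ISGF3 and the most abundant gene of this role, differed by -0.12 ± 0.07 (adjusted p = 0.359). Irf7, which amplifies interferon alpha production, differed by -0.24 ± 0.10 (0.187).

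Of the membrane and GTPase effectors, 2 of 6 were called. Ifitm3 had normalized values of 758.6 to 1103 in CORT (median 856.8) and 852.9 to 1345 in vehicle (median 1024). It differed by -0.29 ± 0.05, which is 0.819 of the vehicle level on that scale (limma, adjusted p = 0.00235). Bst2 had 57.56 to 109 in CORT (median 77.65) and 73.94 to 142.3 in vehicle (median 97.24), and differed by -0.37 ± 0.08 (0.00712). The lower end of both genes' vehicle ranges lies within their CORT ranges. Gbp3, another guanylate-binding protein, came next by p without passing (-0.31 ± 0.10, 0.0631). Gbp2 spread more between libraries, with 575.1 to 1130 in CORT and 493.2 to 1261 in vehicle (-0.27 ± 0.12, 0.198).

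Rsad2 encodes viperin, which makes a nucleotide that stops viral RNA synthesis, and neighbours Cmpk2, a nucleotide kinase, on chromosome 12. Rsad2 had 35 to 103.6 in CORT (median 55.06) and 30.42 to 129.7 in vehicle (median 89.76). It had the greatest difference of the called members, -0.54 ± 0.11 or 0.688 of the vehicle level (limma, adjusted p = 0.00525). Cmpk2 differed by -0.19 ± 0.07 (0.131).

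In the mixed group of PARP, TRIM and other genes, 2 of 6 were called. Rtp4, a chaperone-like protein that restrains flavivirus replication, had 30.72 to 67.72 in CORT (median 45.03) and 38.28 to 136.4 in vehicle (median 61.58). It differed by -0.49 ± 0.12 (limma, adjusted p = 0.0213). Its 2 highest libraries were vehicle 8 h replicates 2 and 3. Parp14 had 711.8 to 1180 in CORT (median 807.3) and 764.2 to 1136 in vehicle (median 917.1), and differed by -0.20 ± 0.06 (0.0423). The Parp14 call held in 12 of the 36 fits that left out a single library. Ifi44, Xaf1 and the TRIM family gene Trim30a stood at -0.37 ± 0.12 (0.0805), -0.23 ± 0.10 (0.220) and -0.19 ± 0.07 (0.124), and Parp9 at -0.02 ± 0.04 (0.886).

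ISG15 is a ubiquitin-like protein, Herc6 the mouse ligase that attaches it and Usp18 the protease that removes it and blocks IFNAR2. Herc6 had 45.72 to 83.06 in CORT (median 62.97) and 54.75 to 98.61 in vehicle (median 75.25), and differed by -0.26 ± 0.07 (limma, adjusted p = 0.0294); the call held in 31 of the 36 fits that left out a single library. Usp18 was the member with a difference above 0, at 0.09 ± 0.10 (0.628). Isg15 differed by -0.50 ± 0.28 (0.330), from values of 0 to 27.39 in CORT and 4.97 to 40.58 in vehicle.

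No sensor, RNA effector or antigen processing gene was called over the day (limma, 0 of 3, 0 of 8 and 0 of 3, with 1, 2 and 2 at an unadjusted p under 0.05). Zbp1, a sensor of Z-form nucleic acid, differed by -0.49 ± 0.15 (adjusted p = 0.0701), and Ifih1 (MDA5, a sensor of long double-stranded RNA) by -0.05 ± 0.04 (0.430). Dhx58 (LGP2), which tunes that sensor, differed by -0.12 ± 0.11 (0.553). All 8 RNA effectors were below 0, from -0.07 (Oasl1) to -0.43 (Oas3), with Ifit2, the most abundant, at -0.20 ± 0.10 (0.282). The immunoproteasome subunits Psmb8 and Psmb9 and the peptide transporter Tap1 stood at -0.18, -0.02 and -0.10 (adjusted p = 0.197, 0.928 and 0.220).

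**Figure D2:**
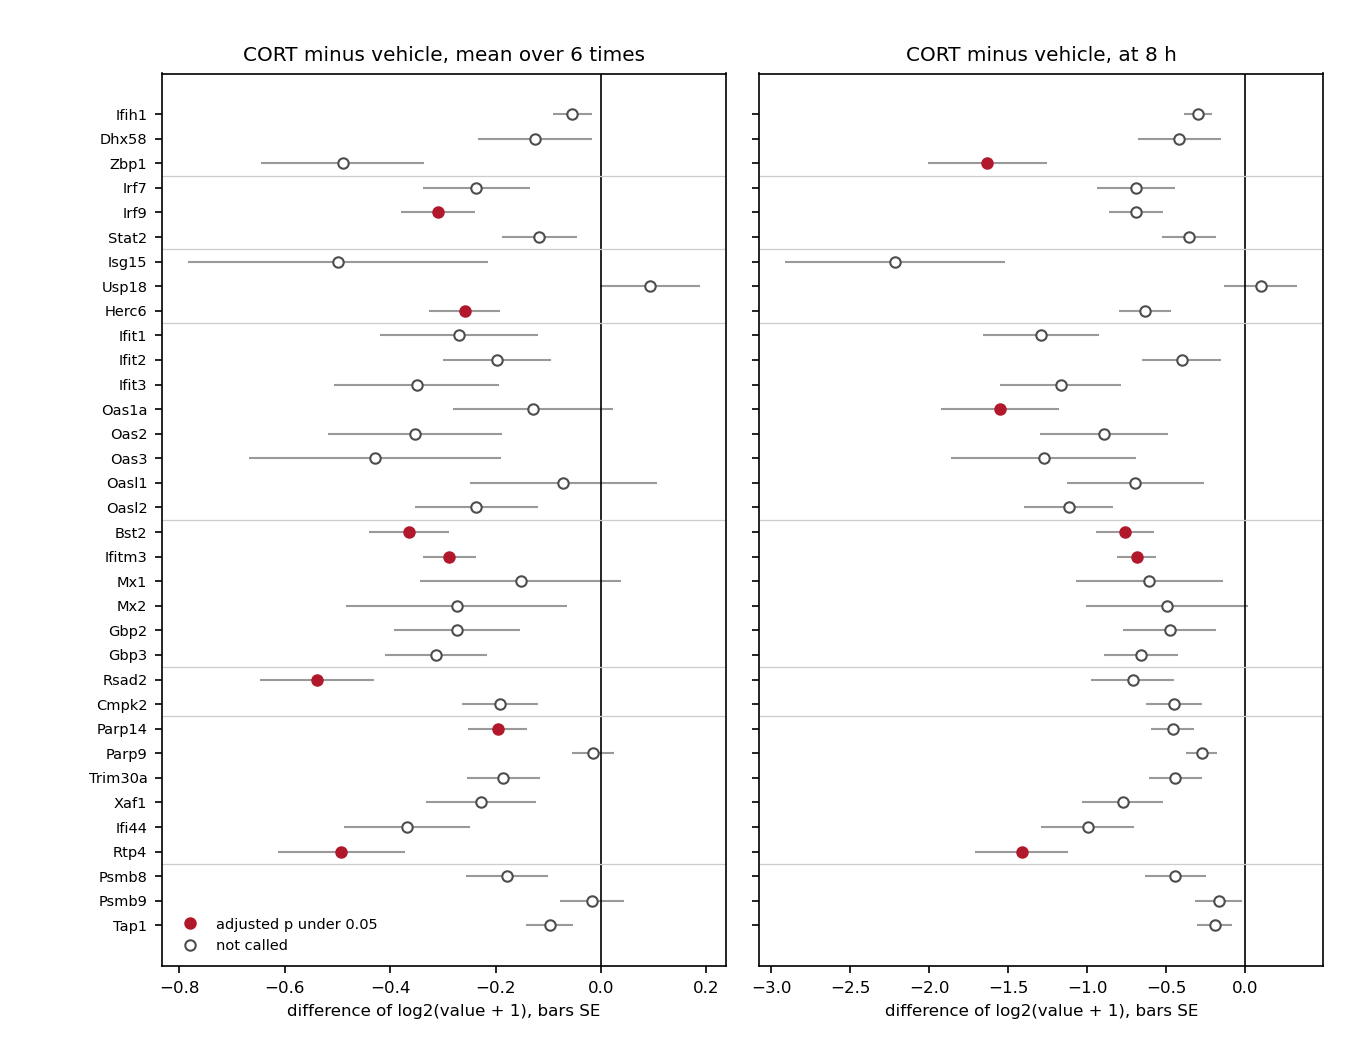
Points give CORT minus vehicle on the log2(value + 1) scale with SE bars for each member, as the mean over 6 times (left) and at 8 h (right; the axes differ in range). Filled points are the 7 members called over the day and the 5 called at 8 h, all to the left of 0.

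At 8 h the median difference was furthest from 0 of the 6 times. There 5 of 34 members were called lower and 0 higher (limma; 0.795% of all features were called, 0.660% lower and 0.134% higher), 33 of 34 lay below 0, and the median was -0.67, against 0.05 over all features. At an unadjusted p under 0.05 there were 25 members, and 15.1% of all features. All 3 CORT libraries lay below all 3 vehicle libraries for 18 of 34 members, which was the case for 10.6% of all features, and the reverse for 0 (12.6%). Ifitm3 had 794.8, 762.8 and 903.1 in CORT, against 1274, 1335 and 1345 in vehicle. No CORT library came near the vehicle libraries, and the difference was -0.69 ± 0.12 (limma, adjusted p = 0.0101, n = 3 each). Rtp4 had 44.11, 45.94 and 36.17 in CORT, against 78.28, 136.4 and 135.7 in vehicle. It differed by -1.41 ± 0.30, or 0.375 of the vehicle level (0.0234).

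The sensor Zbp1 had 14.78, 9.31 and 16.92 in CORT at 8 h, against 31.61, 44.89 and 56.92 in vehicle. Its difference was -1.63 ± 0.38 (limma, adjusted p = 0.0387). Oas1a, an RNA effector of the RNase L pathway, had 11.56, 8.83 and 10.36 in CORT, against 24.5, 36.94 and 35.58 in vehicle (-1.55 ± 0.37, 0.0461). Bst2 had 86.17, 76.92 and 57.56 in CORT, against 99.44, 142.3 and 133.4 in vehicle (-0.76 ± 0.19, 0.0496). In each of these genes the groups do not overlap, and vehicle replicate 1 was the lowest of the vehicle libraries. Irf9, Oasl2, Herc6, Ifit1 and Ifi44 followed without passing, at -0.69, -1.12, -0.64, -1.29 and -0.996 (adjusted p = 0.0515, 0.0559, 0.0589, 0.0833 and 0.0958).

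Isg15 and Ifit1 show how unequal the 3 vehicle libraries at 8 h were. Isg15 had 16.56, 7.42 and 0 in CORT, against 9.14, 34.14 and 40.58 in vehicle. Ifit1, which binds RNA that lacks the methylation of host caps, had 54.83, 79.36 and 47.28 in CORT, against 74.75, 196.2 and 213.4 in vehicle. In both genes vehicle replicate 1 lies within the CORT range and replicates 2 and 3 far above it. Over all 34 members, vehicle 8 h replicate 3 stood above the mean of the gene in 34 and was the highest of the 36 libraries in 16. Replicate 2 stood above it in 34 and was the highest in 7, and vehicle 12 h replicate 3 stood above it in 30. The median deviation of the members from their means was 0.70, 0.57 and 0.45 in these 3 libraries and 0.14 in vehicle 8 h replicate 1. By limma the 8 h count was 0 when replicate 1 or replicate 2 of CORT at 8 h was left out and when replicate 2 or replicate 3 of vehicle at 8 h was, with 17 to 23 members at an unadjusted p under 0.05, and 10 without vehicle 8 h replicate 1. Among libraries of other times, it was 9 without the vehicle library of 12 h replicate 3 and 8 without the CORT library of 24 h replicate 2. It was 3 without CORT libraries 16 h replicate 2, 20 h replicate 2 or 24 h replicate 3, and 3 without vehicle libraries 4 h replicate 3, 16 h replicate 2, 20 h replicate 1, 2 or 3, or 24 h replicate 2. Calls over all features shifted too, from 5 to 287 at 8 h in the 36 fits that left out a single library, against 142 with all libraries. With the 3 high vehicle libraries left out together, limma called 0 members at 8 h (6 at an unadjusted p under 0.05) and 1 over the day.

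Marker lists differed in the same libraries too. In vehicle 8 h replicates 2 and 3 the median deviations of 5 monocyte markers were 0.96 and 0.81, those of 11 macrophage markers 0.40 and 0.44, those of 7 leukocyte markers 0.38 and 0.44, and those of 6 immediate early genes 2.11 and 2.03. These are the highest values of the 36 libraries for the monocyte, macrophage and immediate early lists. For the leukocyte list they are not, since CORT 20 h replicate 1 stood at 0.446 and the vehicle libraries of 24 h at 0.382, 0.321 and 0.401. In vehicle 12 h replicate 3 they were 0.05, 0.05, 0.09 and -0.53, while the members stood high there too. Not every immune list was high in vehicle 8 h replicates 2 and 3. T and NK cell markers stood at -0.134 and 0.064 there, and B and plasma cell markers at -0.636 and -0.459. Plasmacytoid dendritic cell markers stood at -0.064 and -0.097, and conventional dendritic cell markers at 0.045 and 0.298. Neutrophil markers, of which 3 of 6 were tested, were high there at 0.558 and 0.462, but reached 0.888 in CORT 16 h replicate 2. Other lists were high in all 3 libraries (vehicle 8 h replicates 2 and 3 and vehicle 12 h replicate 3): 7 fibroblast markers stood at 0.399, 0.526 and 0.355, the highest values of that list, and 8 endothelial markers at 0.254, 0.324 and 0.441. The 5 adipocyte markers stood at -2.48, -2.80 and -3.39 there and at 2.91 in vehicle 8 h replicate 1, within their range over the other libraries, which reached -3.56 in CORT 20 h replicate 2. Summed over its 11 macrophage markers, the level at 8 h was 7699 to 8187 in CORT and 7378 to 10984 in vehicle, and none of these markers was at 0. The part of these cells in the result was not tested; in bulk RNA, fewer cells of a type and less RNA per cell cannot be told apart.

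**Figure D3:**
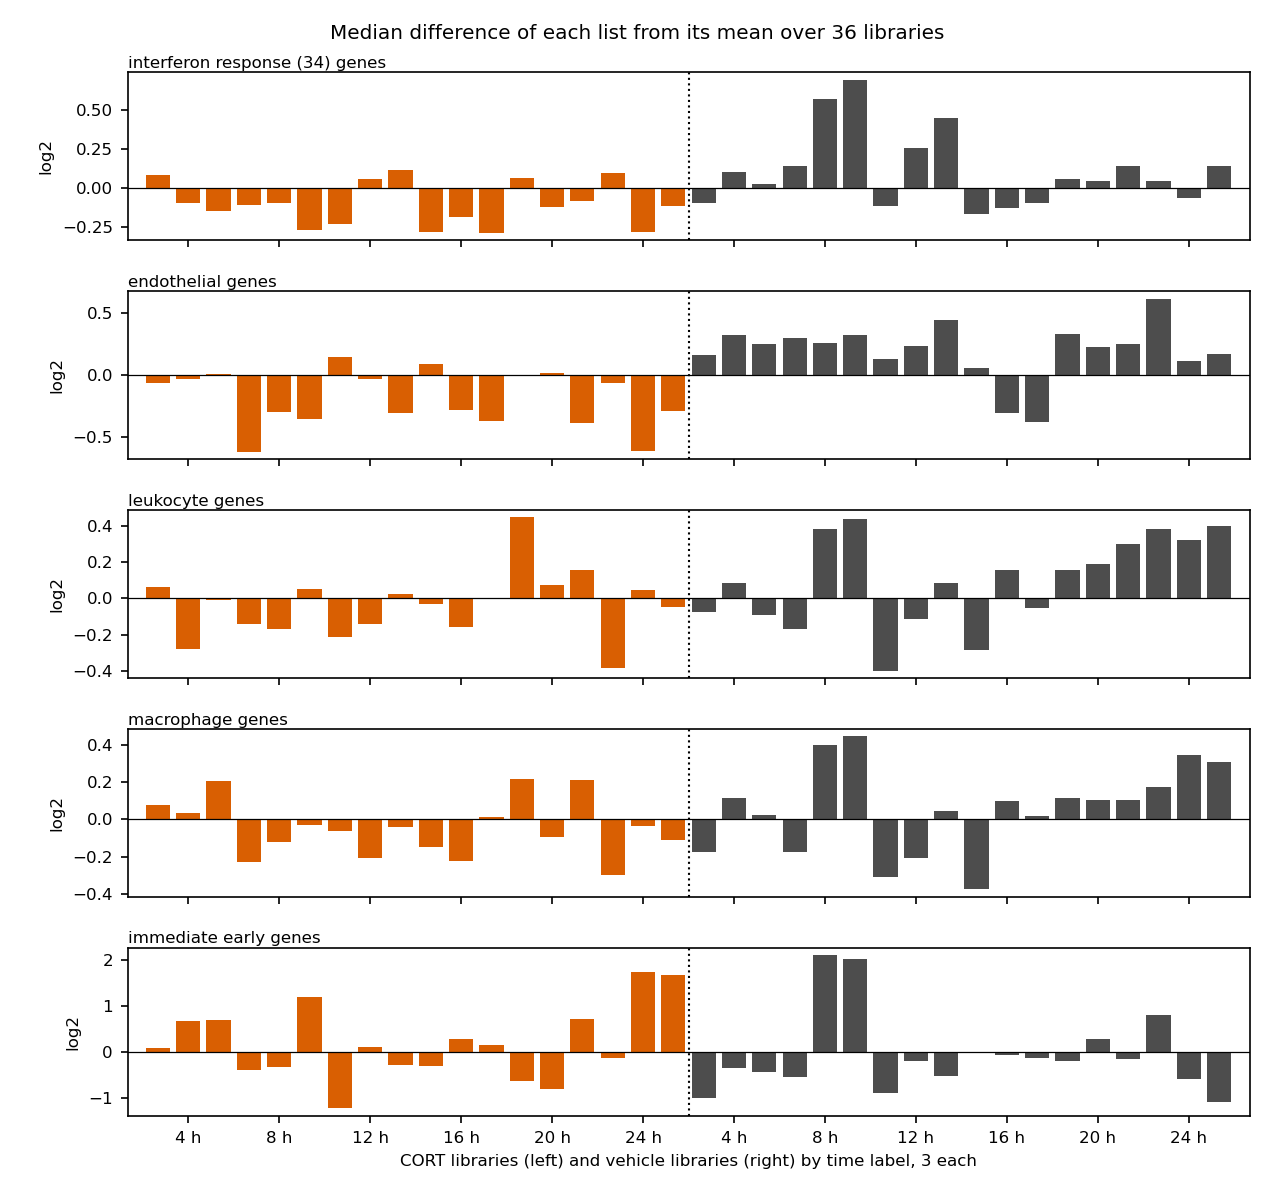
Bars give, for each of 36 libraries, the median difference of the genes of a list from their own means (log2), with CORT libraries at the left and vehicle libraries at the right; the vertical scales differ. The interferon response bars of vehicle 8 h replicates 2 and 3 (0.57 and 0.70) are the highest of that list, as are those of the macrophage and immediate early lists, while the leukocyte bars there are matched in vehicle at 24 h and CORT 20 h replicate 1.

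At the other times no member was called. Limma called 0 of 34 at 4, 12, 16, 20 and 24 h, with 2, 0, 2, 2 and 5 at an unadjusted p under 0.05 (over all features, calls were 0.162%, 0.0448%, 0.0112%, 0% and 0.0336%, and the unadjusted shares 6.90%, 4.51%, 4.05%, 6.01% and 6.31%). All 3 CORT libraries lay below all 3 vehicle libraries for 3 members at 4 h, 0 at 12 h, 5 at 16 h, 4 at 20 h and 5 at 24 h, against 6.29%, 3.34%, 3.24%, 6.05% and 4.84% of all features. The reverse held for 1, 1, 0, 1 and 1 members, against 7.08%, 3.15%, 3.03%, 8.55% and 6.11%. Rsad2 had the lowest difference of the 34 members at 20 and at 24 h. At 24 h it had 59.11, 44.33 and 50.94 in CORT, against 114.2, 74.36 and 89.47 in vehicle (-0.82 ± 0.26; limma, adjusted p = 0.392), and at 20 h 58.0, 103.6 and 50.19 in CORT, against 95.56, 123.4 and 129.7 in vehicle (-0.77 ± 0.26, 0.661). At 16 h it was low in both treatments, at 51.22, 36.75 and 35 in CORT and 43.64, 30.42 and 42.67 in vehicle, and the groups overlap.

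Whether 8 h differed from the rest was tested directly, as a test added after the data were seen. The 8 h difference minus the mean of the differences at the other 5 times was called for 0 of 34 members and 0 of 17867 features by limma (16 members and 5.89% of features at an unadjusted p under 0.05). It lay below 0 for 33 members, with a median of -0.46, and the smallest p was that of Oas1a (-1.71 ± 0.41, adjusted p = 0.373). Without 8 h, the mean over the other 5 times lay below 0 for 29 members with a median of -0.14, and 0 members were called (8 members and 11.6% of features at an unadjusted p under 0.05; 0.0896% of features called). Rsad2 then stood at -0.50 (adjusted p = 0.0656) and Ifitm3 at -0.21 (0.110).

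**Figure D4:**
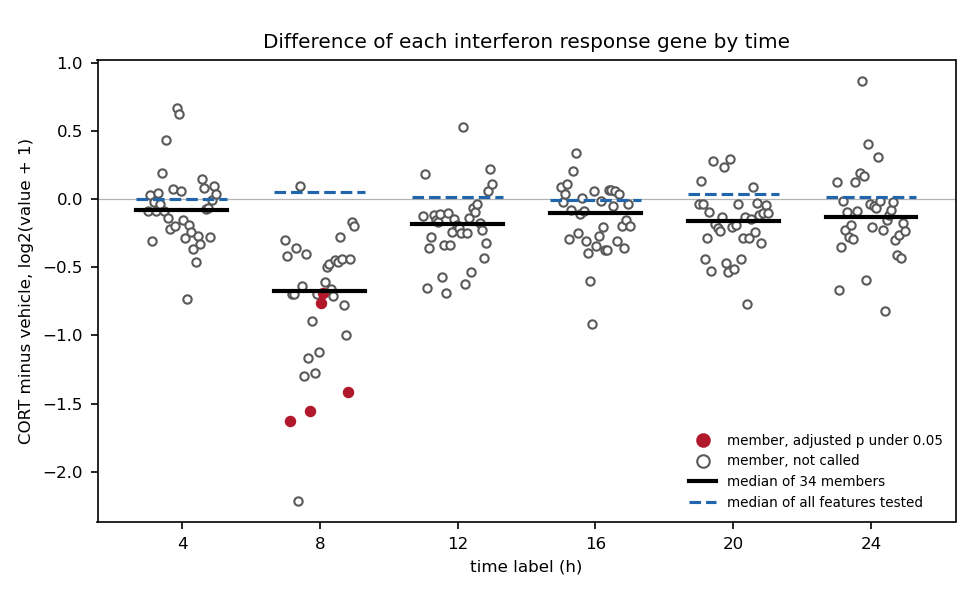
Each point is the CORT minus vehicle difference of a member at a time label, with the median of the 34 members as a solid bar and the median of all features tested as a dashed bar. The members' median is -0.67 at 8 h, where the 5 called members lie, and nearer 0 at the other times.

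Late times (16, 20 and 24 h) were set against early times (4, 8 and 12 h) within each treatment. In vehicle 1 of 34 members was called, Ifih1, which was lower late (0.509% of all features were called, 0.274% lower and 0.235% higher); 13 members had an unadjusted p under 0.05 (12.9% of features), 30 lay below 0 and the median was -0.23. Ifih1 had 281.6 to 415.8 in the late vehicle libraries and 370 to 465.4 in the early ones. By time label its vehicle means were 385.8 ± 13.7, 439.4 ± 35.3, 428.9 ± 25.4, 300.7 ± 22.7, 379.8 ± 31.6 and 326.5 ± 15.8 at 4, 8, 12, 16, 20 and 24 h (SD, n = 3 each). The lowest mean of CORT was at 16 h too, with 321.7 ± 37.3 at 16 h and 356.6 to 392.8 at the other times. The late minus early difference in vehicle was -0.32 ± 0.05 (limma, adjusted p = 0.00252). Ifit1 (-0.61), Ifit3 (-0.63), Rtp4 (-0.49) and Irf7 (-0.40) followed without passing (adjusted p = 0.190, 0.191, 0.191 and 0.198). The Ifih1 call was lost without the libraries of any of the replicate numbers; without replicate 1, 2 other members were called.

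In CORT, limma called 0 of 34 members late against early (0% of all features; 2 members and 6.41% of features at an unadjusted p under 0.05), with a smallest p for Tap1 (-0.19 ± 0.06, adjusted p = 0.628). The late minus early difference itself did not pass between treatments in any of 34 members (0.00560% of all features; 5 members and 4.91% of features at an unadjusted p under 0.05). For Ifih1 this difference of differences was 0.23 ± 0.07 (adjusted p = 0.667). A 24 h rhythm, fitted as a cosine and a sine term, was called for 0 of 34 members in CORT (0% of all features; unadjusted, 2 members and 5.89%) and 0 of 34 in vehicle (0.429%; unadjusted, 5 members and 12.6%), and differed between treatments in 0 (0.106%; unadjusted, 2 members and 4.37%), by limma in each case. The smallest p in vehicle was that of Ifih1, with an amplitude of 0.20 ± 0.06 and a fitted peak at 8.18 h (adjusted p = 0.259). In CORT it was that of Oas1a, with 0.45 ± 0.14 at 22.8 h (0.746).

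**Figure D5:**
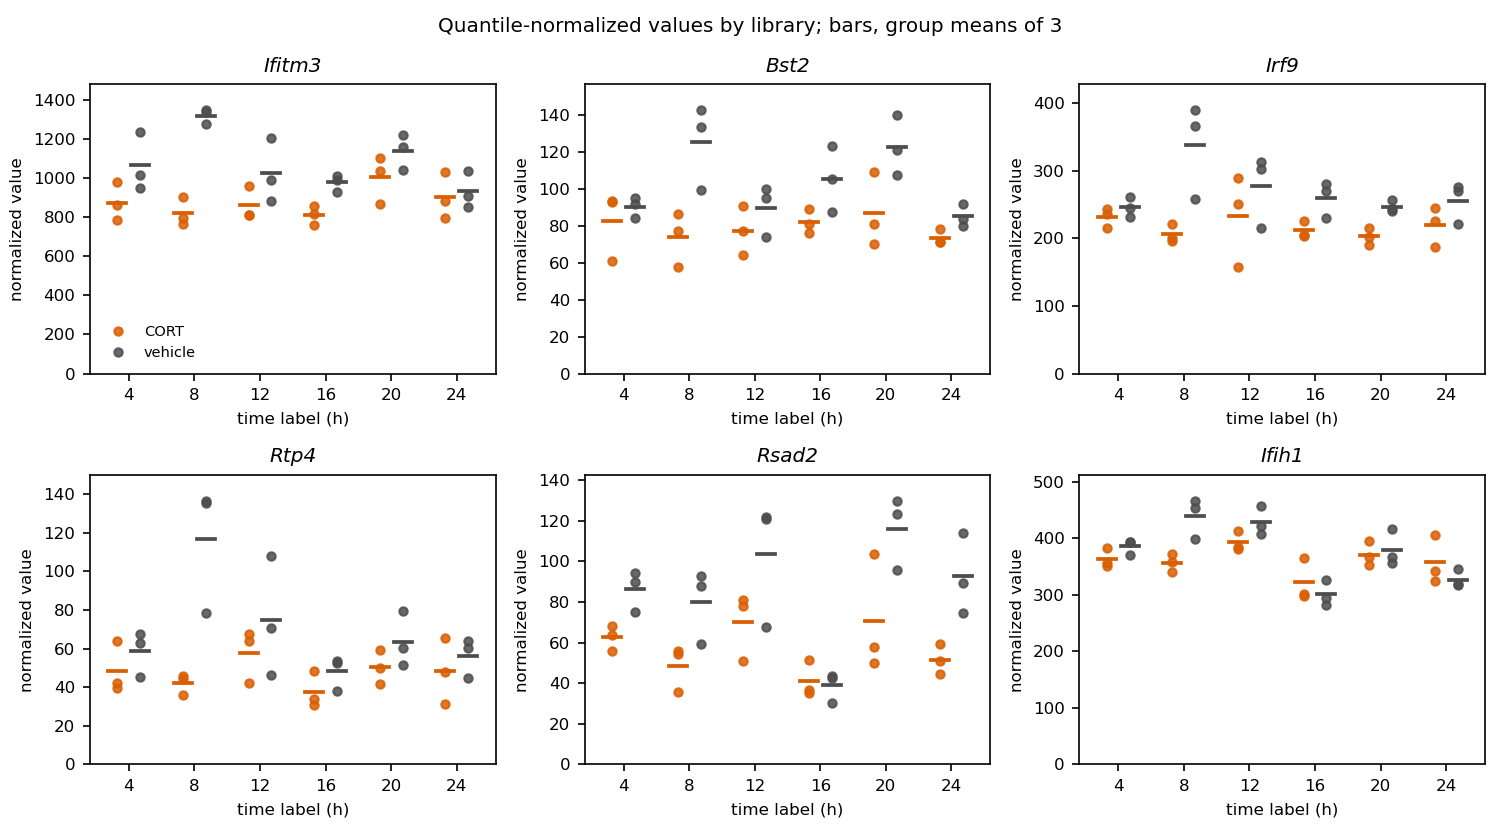
Normalized values of 6 called members by library, with CORT to the left of vehicle at each time label and bars at the means of 3 libraries. All 6 separate fully at 8 h, lower in CORT, as did 18 of 34 members and 10.6% of all features. Ifitm3, Bst2 and Rtp4 were called at 8 h itself, so their separation there follows in part from the choice of genes. Some of the 6 separate at other times as well. Rsad2 is low at 16 h in both treatments, and Ifih1 differs more between times than between treatments.

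Values of the members were mostly positively correlated across libraries. Over the 36 libraries, Pearson's r between 2 members had a median of 0.382 over 561 pairs, and 530 pairs lay above 0. After removal of the 12 group means the median was 0.237. The highest were Ifi44 with Rtp4 (0.883), Ifit1 with Rtp4 (0.833) and Ifit1 with Trim30a (0.819). The antigen processing genes followed the others less, with a median r of 0.222 over 93 pairs and 0.005 after removal of the group means. All pairs share the same libraries and their scaling, and the vehicle 8 h libraries weigh in each of them, so these values describe the set only.

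Upstream of the members, the pathway was measured from ligands to receptors. Ifnb1, the gene of interferon beta, was above 0 in 1 of 36 libraries and Ifng, that of interferon gamma, in 11, and neither was abundant enough to test; 10 of 15 listed ligand genes were at 0 throughout. Among 9 receptor and kinase genes 1 was called over the day. This was Ifnar1, with 701 ± 43.5 in CORT and 774.7 ± 55.6 in vehicle (SD, n = 18 each), a difference of -0.14 ± 0.03 (limma, adjusted p = 0.0111). At 8 h it had 579.6, 654.0 and 676.8 in CORT, against 767.0, 863.6 and 886.8 in vehicle, with no overlap (-0.40 ± 0.08, 0.0154). Ifnar2, the other chain of the receptor, differed by -0.10 ± 0.04 (0.147). Irf1, a transcription factor induced by interferon gamma, differed over the day by -0.20 ± 0.07 (0.113). Stat3, which answers to interleukin 6 among other cytokines, was the 1 of 11 further transcription factors to be called (-0.18 ± 0.05, 0.0314), and Tlr9, a sensor of unmethylated DNA, the 1 of 15 further sensors and adaptors (-0.26 ± 0.07, 0.0386). Of 10 inhibitors, 0 were called over the day. Over all features 4.11% were called, and 1 call or 0 in lists of 9 to 15 genes cannot be told apart from that share.

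Further lists of interferon-induced genes were read against the 4.11% of all features called over the day. Of 19 GTPases and other genes induced mainly by interferon gamma, 5 were called lower over the day and 18 lay below 0, with a median of -0.29. Gbp9 had 50.5 ± 11.2 in CORT and 74.3 ± 16.0 in vehicle (SD, n = 18 each) and differed by -0.55 ± 0.08 (limma, adjusted p = 0.000483). Iigp1, a GTPase that attacks the vacuoles of parasites, differed by -0.48 ± 0.12 over the day (0.0224) and by -1.62 ± 0.29 at 8 h (0.00977), and Irgm2, which regulates it, by -0.32 ± 0.07 and -0.85 ± 0.17 (0.00927 and 0.0164). Gbp4 (-0.49) and Ciita, the master regulator of MHC class II genes (-0.39), were the other called genes of that list (0.0300 and 0.0491). Of 57 further interferon-stimulated genes 4 were called lower (Sp100, Lgals3bp, Rnf213 and Slfn8), with 46 below 0, 11 above 0 and a median of -0.09. Of 18 genes of class I presentation 1 was called (Tap2, -0.17 ± 0.04, 0.00770), with 11 below 0, 7 above 0 and a median of -0.08. None of these lists had a gene called higher over the day. Among all features, 2.82% were called lower and 1.29% higher. Whether the lists with 4 and 1 calls differ from these shares was not tested. At 4 h, Tlr7, a sensor of single-stranded RNA, was called higher in CORT (0.99 ± 0.19, 0.0236).

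Lists of cell markers stand beside these values. Over all features, 4.11% were called over the day, 2.82% lower and 1.29% higher. Endothelial markers were called lower in CORT for 6 of 8 (Vwf -0.59 ± 0.08, Pecam1 -0.38 ± 0.07), with summed levels of 2460 to 4294 in CORT and 3135 to 6216 in vehicle. Rac2 was called lower among 7 leukocyte markers (-0.32 ± 0.09), with summed levels of 1030 to 1702 in CORT and 1046 to 1986 in vehicle. Cx3cr1 was called lower among 11 macrophage markers (-0.58 ± 0.12) and Trac among 13 T and NK cell markers (-0.74 ± 0.16). Such 1 call in a list of 7 to 13 genes cannot be told apart from the share over all features. Of 7 fibroblast markers 3 were called lower (Col1a1, Col1a2 and Fbln1), with 5 of the 7 below 0 and 2 above 0 (median -0.18). All these calls were made by limma with adjusted p under 0.05. Of 12 urothelial markers 0 were called, and all 12 lay above 0 (median 0.16). None of the endothelial, leukocyte, macrophage, T and NK cell, fibroblast and urothelial markers that were measured was at 0 throughout. The part of cell composition in the lower values was not tested.

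On mm10, the called genes lie apart from each other, with Ifitm3 at chr7:141009586-141010770, Bst2 at chr8:71534255-71537456, Irf9 at chr14:55603571-55610030, Rsad2 at chr12:26442746-26456452, Rtp4 at chr16:23520291-23614222, Herc6 at chr6:57581000-57664632, Parp14 at chr16:35832874-35871544 and Ifih1 at chr2:62595798-62646255 (GENCODE). Zbp1 and Oas1a, called at 8 h, lie at chr2:173206612-173218923 and chr5:120896256-120907521. Some members share bases with a neighbour: Irf9 with Rnf31, Rtp4 with Masp1, Irf7 with Phrf1, Parp9 with Dtx3l and Psmb9 with Tap1. How the authors assigned such reads is not given in the sources used here, so these values are uncertain to that extent. The same holds for members with near-identical relatives, which include the Ifit, Gbp, Oas1 and Trim30 families.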

How the data were processed

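The labels give whole bladder as the source of all 36 C57BL/6 samples, while their protocol text describes RNA isolated from blood with globin RNA removed, followed by rRNA depletion and directional library preparation. The submitters' processing notes name the build mm10; which aligner and counter made the tables is not given in the sources used here. Gene tables deposited by the authors hold quantile-normalized read counts, a linear signal per gene, with 12 libraries in each table and values that are multiples of 1/12; further deposited tables hold selected genes as log2 of the normalized signal, used here only to compare library names. Each library was ranked from its values in the authors' deposited tables and put on a scale common to 36 libraries. Values were analysed as log2(value + 1), which understates changes of low genes. A feature was tested when it exceeded the lowest value in at least 50% of libraries. All tests used limma 3.58.1 in R 4.3.3, with Benjamini-Hochberg adjustment over all features at 0.05. Comparisons of treatments and times used a fit of 12 group means. The 24 h rhythm used a cosine and a sine term, fitted in each treatment alone. The filter was applied per treatment there, which left 17921 features in CORT and 17945 in vehicle. Its difference between treatments was tested in all 36 libraries, through the products of treatment with cosine and sine. The scripts were tested on simulated data. Groups came from the labels; the time of replicate 3 libraries came from their titles. The mean total count was 11016413 per library in CORT and 10682675 in vehicle, so that values of a few units carry large counting error. The members, gene lists and tests were chosen with earlier results of these data known. Named are all members called in any test, the most abundant and most different member of each role, up to 10 members by smallest p in a comparison, and list genes called over the day or between late and early times, with further called genes added. Alternatives covered the pseudocount, filters, rescaling, replicate blocks, library names and libraries left out. A gene named in the plan is not reported here.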

Additional observations from a re-analysis of the deposited data

How the results depend on the processing

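The number of members called was recomputed under other settings; the main counts were 7 of 34 over the day, 5 at 8 h and 1 for late against early times in vehicle. At 8 h it was 8 with a pseudocount of 5, 8 with a minimum mean of 10, 8 with median-of-ratios rescaling, 8 with the replicate number as a block and 3 with no filter. Without replicate 1, 2 or 3 it ranged from 0 to 11 over the day, from 0 to 7 at 8 h and from 0 to 2 in vehicle late against early. With single libraries left out, calls over all features ranged from 408 to 1282, from 5 to 287 and from 55 to 340. The count of members ranged from 5 to 10, from 0 to 10 and stayed at 1 in these fits. It was 0, 0 and 0 without the 8 libraries named in different ways (limma; 10, 17 and 2 at an unadjusted p under 0.05) and 0, 0 and 0 with their other names (10, 4 and 1). Without the 3 vehicle libraries in which members stood highest, chosen after seeing the data, it was 1, 0 and 0 (6 and 1 unadjusted in the last pair), and without 8 h it was 0 over the day (8 unadjusted). The cause of these shifts was not tested. In the other 10 comparisons the count was 0 by limma under every setting run. For the called genes, 487 of 644 alternative values kept their call, 157 lost it and 0 reversed. The labels do not say that replicate numbers pair the samples, and 100 of 198 pairs of same-numbered libraries, not every pair, had deviations that correlated over 0.1. Their mean was 0.110 (lowest -0.511), against -0.0546 for libraries with other numbers (76 of 396 over 0.1). Deviations sum to 0 over the 3 libraries of a group, so these means are tied and the negative one adds no separate evidence. Of 36 libraries, 28 correlated best with their own number, a hint from the data that libraries of a number share something. The block changed no other call count by over 1.5 times. Low members such as Mx1, Mx2 and Oas3 are limited by depth.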

Other observations

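Rsad2 and its neighbour Cmpk2 were both low in vehicle at 16 h and higher at 20 h, a contrast that belongs to none of the comparisons and was chosen after the values were seen. At 20 h and 16 h, Rsad2 averaged 116.2 ± 18.2 and 38.9 ± 7.4, and Cmpk2 87.1 ± 5.9 and 61.4 ± 9.0 (normalized values, SD, n = 3). All 3 libraries of 20 h lay above all 3 of 16 h in both genes. The share of all features that separate in this way was not counted. These differences were not tested. At other times the genes differed in course, with Rsad2 at 80.2 and 103.5 and Cmpk2 at 103.8 and 81.7 at 8 and 12 h.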
